A study of Mus musculus with 4 samples.

Results

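The 51 G2/M and mitosis genes form a module of genes that serve the passage from the end of DNA replication through division of the cell. They were taken by gene symbol from a fixed list, and all 51 were found once among the 33565 genes of the count matrices. The RNA came from 1 CapSeq library of 3 established mouse cell lines, in which single cells receive combined barcodes by splitting and pooling. N2a is a neuroblastoma line and NIH/3T3 a fibroblast line, both grown in medium with 10% FBS. The mESCs were embryonic stem cells of the E14TG2a line, grown on gelatin with 15% FBS, 1000 U/mL LIF, 3 μM CHIR99021 (a GSK3 inhibitor) and 1 μM PD0325901 (a MEK inhibitor). Cells of each line entered their own columns of the BC1 plate, which holds the barcodes of the opening round, and each line was thus marked by 32 BC1 sequences. Since the lines share that library and no replicate culture is named in the labels, no test between lines was made. Intervals at the 95% level are exact intervals for UMI counts (counted RNA molecules) or, for shares of cells, for numbers of cells. They cover counting error only.

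Barcodes were kept from 1000 UMIs upwards and up to 20% mitochondrial UMIs, and 2323 N2a, 2037 NIH/3T3 and 2137 mESC of them remained, with medians of 6185, 4863 and 4803 UMIs. The 3 matrices shared 0 cell barcodes, which follows from their division by BC1 and does not measure how well the lines were separated. Of 10 marker genes, 8 were highest in their own line, among them Hand2 at 404 CPM (UMIs per 1000000) in N2a cells, Col1a2 at 461 CPM in NIH/3T3 cells and Zfp42 at 1318 CPM in mESCs. The other 2, listed for N2a, were highest in mESCs: Stmn2 was at 0.334 CPM in N2a and 162 CPM in mESCs, and Gata3 at 3.84 and 8.44 CPM.

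Many of these genes are transcribed late in the cell cycle, after S phase, and many of the proteins are degraded as cells leave mitosis. A cyclin B and Cdk1 kinase complex triggers entry into mitosis, chromosomes condense and attach to the spindle through kinetochores, and a ubiquitin ligase, the anaphase-promoting complex, starts their separation and the exit. In quiescent and early cycling cells the DREAM complex holds many of the promoters silent through CHR elements. Forms of these are the 6-base words TTTGAA and, as a variant, TTTAAA. Only these forms were searched for here and are called CHR words. The factor NF-Y binds CCAAT boxes that often lie nearby. A population that divides without synchrony holds cells of all phases at once.

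The 250 bases before the annotated start of the canonical transcript are shown for 3 members. Among the members with a CHR word, these had the highest mean correlation with the rest of the module across cells. The start of that transcript can lie inside the outer bounds of the gene, as for Top2a and Cenpf. They were read from GRCm39, 5′ to 3′ on the strand of the gene, with CHR words and CCAAT in capitals in either orientation (CCAAT reads ATTGG on the other strand). The Top2a window lies at chr11:98915042-98915291 on the minus strand, the Cenpf window at chr1:189420313-189420562 on the minus strand, and the Cenpe window at chr3:134918048-134918297 on the plus strand.
Top2a: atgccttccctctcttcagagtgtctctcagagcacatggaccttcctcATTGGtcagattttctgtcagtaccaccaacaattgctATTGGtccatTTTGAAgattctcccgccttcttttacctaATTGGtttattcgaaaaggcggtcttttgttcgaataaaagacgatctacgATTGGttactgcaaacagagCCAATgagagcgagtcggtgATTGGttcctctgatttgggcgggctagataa
Cenpf: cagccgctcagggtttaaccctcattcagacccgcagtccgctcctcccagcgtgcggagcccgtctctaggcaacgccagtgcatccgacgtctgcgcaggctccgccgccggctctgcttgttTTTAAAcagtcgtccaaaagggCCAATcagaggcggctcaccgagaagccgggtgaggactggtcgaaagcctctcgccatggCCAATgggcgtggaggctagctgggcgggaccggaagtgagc
Cenpe: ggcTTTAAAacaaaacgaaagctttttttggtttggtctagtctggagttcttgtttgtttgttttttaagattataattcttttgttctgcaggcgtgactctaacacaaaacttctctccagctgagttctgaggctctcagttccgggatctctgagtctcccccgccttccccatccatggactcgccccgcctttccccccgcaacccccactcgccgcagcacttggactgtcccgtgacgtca
The Top2a window held 1 TTTGAA word, which began 153 bases before the start, and 6 CCAAT words between 201 and 32 bases before it. The Cenpf window held 1 TTTAAA word at 125 bases and CCAAT words at 103 and 42 bases before the start. The Cenpe window held 1 TTTAAA word at 247 bases and 0 CCAAT words. In the same window of all 51 members, 24 (47.1%) held a CHR word on either strand, against 20.5% of the 11482 genes with a mean of at least 5 CPM and a window and 25.6% of all 32953 genes with one. CCAAT was present for 30 members (58.8%), against 36.8% and 35.8%, and at least 2 copies for 19 members (37.3%), against 12.6% and 10.0%. Among 43 genes of S phase, a CHR word was found for 9 (20.9%), CCAAT for 20 (46.5%) and 2 or more copies of it for 8 (18.6%). Among 61 further mitosis genes that are not members, the numbers were 19 (31.1%), 31 (50.8%) and 13 (21.3%), between the members and all genes in each case. The words can share bases with each other, and a match describes letters in a window and not binding.

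The module was lowest in N2a and highest in mESCs. Summed over the 51 genes, it was at 7979 CPM (95% interval 7938 to 8021) in N2a, 9959.6 CPM (9902 to 10017) in NIH/3T3 cells and 11616 CPM (11556 to 11677) in mESCs. The 32 BC1 sequences of a line, which divide the cells of that line and are not replicate cultures, ranged from 7018 to 9316 CPM in N2a cells, from 7999 to 11698 CPM in NIH/3T3 cells and from 10708 to 12241 CPM in mESCs. The ranges of N2a and mESCs did not overlap, whereas that of NIH/3T3 overlapped both. The level in mESCs was 1.46 times that in N2a (95% interval 1.45 to 1.47) and 1.17 times that in NIH/3T3 (1.16 to 1.18), and the level in NIH/3T3 was 1.25 times that in N2a (1.24 to 1.26). The median member differed by a log2 ratio of 0.80 between mESC and N2a, 0.52 between NIH/3T3 and N2a, and 0.26 between mESC and NIH/3T3, where the medians over all genes tested were -0.05, -0.02 and -0.01. The 3 comparisons share their lines and are not independent of each other.

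The 43 S phase genes differed in another way. They were at 5204 CPM in N2a cells, 5308 CPM in NIH/3T3 cells and 8036 CPM in mESCs, so that mESCs had 1.54 times the N2a level (95% interval 1.53 to 1.56) while NIH/3T3 had 1.02 times (1.01 to 1.03). A further list of 61 genes of mitosis outside the 51 was at 4846, 5386 and 7425 CPM, in the same order of lines as the module. Barcodes with under 100 UMIs, taken to hold free RNA and debris rather than cells, carried the module at 105%, 102% and 97.6% of the level in cells of N2a, NIH/3T3 and mESC, and the part of such RNA in the levels was not tested.

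Member by member, mESCs were highest for 31 of the 51 (60.8%), NIH/3T3 for 16 (31.4%) and N2a for 4 (7.84%), and N2a was lowest for 38 (74.5%). Over all 11498 genes with a mean of at least 5 CPM, which all 51 members passed, mESCs were highest for 32.2%, NIH/3T3 for 33.3% and N2a for 34.5%, and N2a was lowest for 30.7%. The counting interval of the highest line lay clear of the next line for 28 of these 31, 12 of the 16 and 2 of the 4. At a ratio of 1.5 or more, 34 members were higher in mESC than in N2a (27.2% of all genes tested) and 3 were higher in N2a than in mESC (31.2% of genes), namely Nuf2, Hjurp and Anp32e. At the same ratio 24 members were higher in NIH/3T3 than in N2a (26.8% of genes) and 2, Ccnb2 and Hmgb2, were higher in N2a than in NIH/3T3 (28.5% of genes). Between NIH/3T3 and mESC, 12 were higher in mESC (29.8% of genes) and 5 in NIH/3T3 (30.6% of genes), the latter being G2e3, Nuf2, Hjurp, Gas2l3 and Mki67. The ratio of the highest to the lowest line had a median of 1.99 over the members and of 2.35 over all genes tested. It was at least 2 for 25 members (58.9% of genes) and under 1.5 for 10 (20.5% of genes), so that a ratio of 2 was not more common among the members than among all genes. Where 3 values follow each other without further words, they are those of N2a, NIH/3T3 and mESC in this order.

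**Figure D1:**
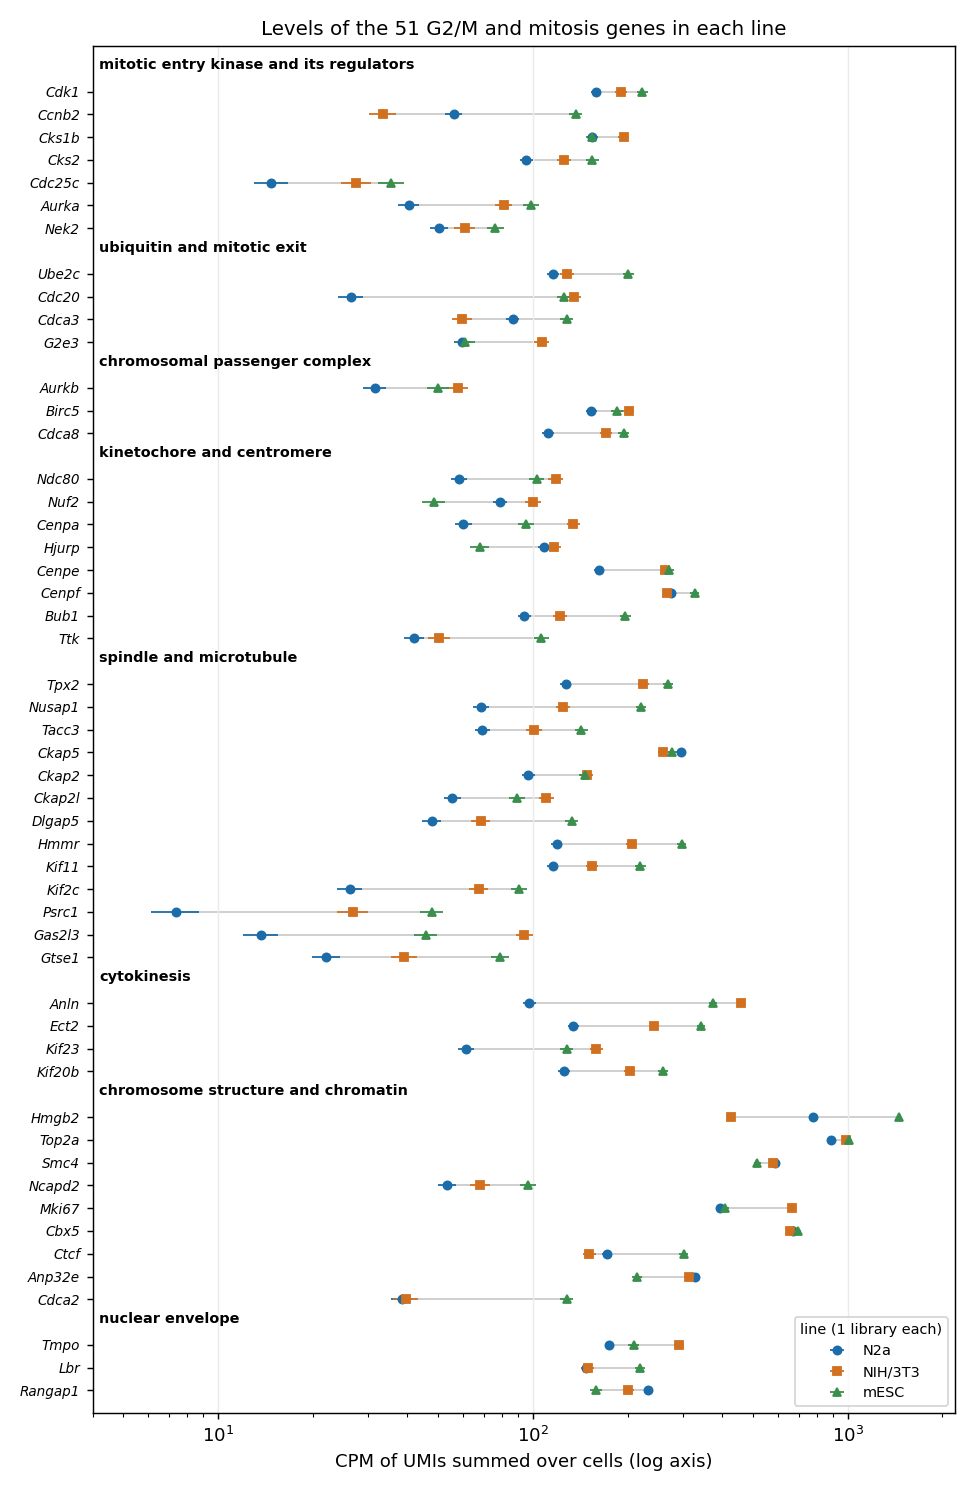
Level of each of the 51 members in the 3 lines, grouped by role: the horizontal axis gives CPM of UMIs summed over cells on a log scale, symbols mark the lines and bars the exact 95% Poisson intervals. N2a lies lowest for 38 members, and the widest gaps are those of Gas2l3, Psrc1, Cdc20 and Anln.

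The 7 genes of the mitotic entry kinase and its regulators together were at 570.3 CPM in N2a cells, 713 in NIH/3T3 cells and 879 in mESCs. Cdk1, the kinase that drives entry into mitosis, was at 159, 191 and 223 CPM, with ranges over the BC1 sequences of 125 to 214, 110.3 to 257 and 135 to 313 CPM. The ranges overlapped, and the mESC level was 1.40 times (95% interval 1.33 to 1.48) the N2a level. Ccnb2, a B-type cyclin partner of Cdk1, was at 56.1, 33.3 and 137 CPM, with ranges of 38.3 to 76.5, 0 to 55.1 and 99.2 to 204 CPM. The mESC range lay above both others, and the level in mESCs was 4.11 times (95% interval 3.68 to 4.60) that in NIH/3T3. The paralogous Cdk-binding subunits differed in their order: Cks1b was at 155, 194 and 154 CPM, and Cks2 at 95.4, 126 and 155 CPM. Of the kinases of centrosome and spindle, Aurka was at 40.3, 80.8 and 98.8 CPM, and Nek2, which acts in centrosome separation, at 50.2, 60.7 and 76.1 CPM. Cdc25c, a phosphatase that activates Cdk1, rested on few UMIs and was at 14.8, 27.4 and 35.4 CPM. Of the 7, 5 were thus lowest in N2a, Ccnb2 was lowest in NIH/3T3, and Cks1b was lowest in mESCs at a level whose counting interval overlapped that of N2a.

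Genes of ubiquitin transfer and mitotic exit were at 288 CPM in N2a cells, 430.2 in NIH/3T3 cells and 516 in mESCs in sum. Ube2c, the ubiquitin-conjugating enzyme of the anaphase-promoting complex, was at 116, 128 and 201 CPM, with ranges over the BC1 sequences of 60.7 to 162, 79.1 to 183 and 135 to 267 CPM. Cdc20, the activator of the same complex, was at 26.4, 136 and 126 CPM, with ranges of 11.8 to 44.7, 88.6 to 216 and 91.3 to 201 CPM. The N2a range of Cdc20 lay below both others, which overlapped, and the NIH/3T3 level was 5.14 times (95% interval 4.64 to 5.71) the N2a level. Cdca3, linked to the turnover of a Cdk1 inhibitor, was lowest in NIH/3T3 at 59.6 CPM, against 86.2 in N2a and 128 in mESC. G2e3, a ubiquitin ligase, was highest in NIH/3T3 at 107 CPM, against 59.6 in N2a and 61.1 in mESC.

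The 3 genes of the chromosomal passenger complex, which corrects attachments of chromosomes to the spindle, summed to 297 CPM in N2a cells, 431 in NIH/3T3 cells and 429.6 in mESCs. Birc5 (survivin) was at 154, 202 and 185 CPM, with overlapping ranges over the BC1 sequences of 106 to 192, 163 to 243 and 107 to 233 CPM. Aurkb, the kinase of the complex, was at 31.5, 57.7 and 50.0 CPM, with ranges of 16.2 to 51.7, 27.1 to 93.6 and 27.4 to 98.6 CPM that overlapped as well, and the NIH/3T3 level was 1.83 times (95% interval 1.64 to 2.05) the N2a level. Cdca8 (borealin) was at 111, 171 and 195 CPM. All 3 were lowest in N2a.

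The kinetochore and centromere genes, 8 in number, summed to 880.0 CPM in N2a cells, 1173 in NIH/3T3 cells and 1215 in mESCs, but their members did not share 1 order. Cenpf, a large kinetochore-associated protein, was at 275, 268 and 327 CPM, with ranges over the BC1 sequences of 199 to 374, 168 to 377 and 198 to 400.5 CPM, and all 3 overlapped. Cenpe, a kinetochore motor of the kinesin family, was lower in N2a, at 163, 263 and 270.5 CPM. Ttk, a kinase of the spindle checkpoint, was at 42.0, 50.4 and 106 CPM, with ranges of 13.6 to 66.3, 22.6 to 105 and 72.0 to 149.9 CPM, and the mESC level was 2.53 times (95% interval 2.31 to 2.77) the N2a level. Bub1, another checkpoint kinase, had the same order at 94.1, 122 and 197 CPM. Ndc80 and Nuf2 encode partners in 1 complex that grips microtubules, and their orders differed. Ndc80 was at 58.3, 118 and 103 CPM, whereas Nuf2 was at 78.9, 100.1 and 48.4 CPM and hence lowest in mESCs. Cenpa, the centromeric variant of histone H3, was at 60.2, 135 and 95.3 CPM, and Hjurp, its chaperone, was at 109, 117 and 67.9 CPM. Nuf2 and Hjurp were the 2 members of this role with mESC lowest.

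The 13 spindle and microtubule genes summed to 1064 CPM in N2a cells, 1624 in NIH/3T3 cells and 2058 in mESCs, and the mESC sum was 1.93 times the N2a sum (95% interval 1.90 to 1.97). Of the 13, 12 were at least 1.5 times higher in mESC than in N2a (27.2% of all genes tested). In NIH/3T3, 9 were at least 1.5 times higher than in N2a (26.8% of genes). Short of 1.5 in both comparisons was Ckap5, a microtubule polymerase, at 295, 258 and 278 CPM, with ranges over the BC1 sequences of 221 to 388, 174 to 341 and 181 to 352 CPM that overlapped throughout. Gas2l3, which links actin and microtubules, was at 13.7, 94.1 and 45.7 CPM, with ranges of 2.29 to 31.9, 58.5 to 144 and 23.1 to 71.0 CPM. Its NIH/3T3 range lay above that of N2a, the mESC range overlapped both, and its NIH/3T3 level was 6.87 times (95% interval 5.98 to 7.92) the N2a level, the largest ratio of the 51. Psrc1, a spindle protein, was at 7.35, 26.8 and 47.7 CPM, and the mESC level was 6.49 times (95% interval 5.37 to 7.90) the N2a level. The N2a levels of both genes rested on few UMIs, 246 for Gas2l3 and 132 for Psrc1. Nusap1, which bundles microtubules near chromosomes, was at 68.4, 125 and 221 CPM. Tpx2, the activator of Aurka on the spindle, was at 127, 225 and 269 CPM. Of the kinesins, Kif11, which pushes spindle poles apart, was at 116, 154 and 219.7 CPM, and Kif2c, which takes microtubules apart, was at 26.3, 67.3 and 90.3 CPM. The other 6, Tacc3, Ckap2, Ckap2l, Dlgap5, Hmmr and Gtse1, were lowest in N2a as well, with ratios of highest to lowest line between 1.53 (Ckap2) and 3.57 (Gtse1).

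Cytokinesis was the role with the largest gap between N2a and the other lines. Its 4 genes summed to 419 CPM in N2a cells, 1062 in NIH/3T3 cells and 1104 in mESCs, so that mESC had 2.64 times (95% interval 2.56 to 2.71) and NIH/3T3 2.53 times (2.46 to 2.61) the N2a level. Each of the 4 was at least 1.5 times higher in both lines than in N2a (27.2% of all genes tested for mESC and 26.8% for NIH/3T3). Anln, a scaffold of the contractile ring, was at 97.4, 457 and 375 CPM, with ranges over the BC1 sequences of 62.7 to 145, 294 to 642 and 319 to 445 CPM. The N2a range of Anln lay below both others, and the NIH/3T3 level was 4.70 times (95% interval 4.45 to 4.96) the N2a level. Ect2, the exchange factor that switches on RhoA at the division plane, was at 134, 242 and 342 CPM. Kif23, the kinesin of the centralspindlin complex, was at 61.5, 159 and 128 CPM, and Kif20b, a kinesin of the final separation, was at 126, 203 and 259.6 CPM. Racgap1, the partner of Kif23 in centralspindlin and a gene of the further list, was highest in N2a, where Kif23 was lowest, at 503, 186 and 99.3 CPM.

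The 9 genes of chromosome structure and chromatin carried 49.0% of the module's UMIs in N2a cells, 39% in NIH/3T3 cells and 41.6% in mESCs, and summed to 3907 CPM in N2a cells, 3885 in NIH/3T3 cells and 4827 in mESCs. The sums of N2a and NIH/3T3 did not differ beyond counting error, with a ratio of 1.01 (95% interval 0.994 to 1.02). Top2a, the topoisomerase that untangles sister chromatids, was at 883, 985 and 1010.5 CPM, with ranges over the BC1 sequences of 663 to 1134, 735 to 1201 and 902 to 1193 CPM, and these overlapped in all 3 lines. Hmgb2, a DNA-bending chromatin protein, was at 778, 426 and 1454 CPM, with ranges of 642 to 916, 296 to 544 and 1205 to 1645 CPM that did not overlap, and the mESC level was 3.41 times (95% interval 3.31 to 3.52) the NIH/3T3 level. Mki67, which coats mitotic chromosomes and serves as a proliferation marker, was highest in NIH/3T3, at 393, 665 and 408 CPM. Condensin subunits differed in their order, with Smc4 at 588, 579 and 517 CPM and Ncapd2 at 53.5, 68.0 and 96.7 CPM. Cdca2, which recruits a phosphatase to chromatin, was at 38.4, 39.5 and 128 CPM, and Ctcf, the insulator protein, at 172, 151 and 302 CPM. Cbx5, the heterochromatin protein HP1 alpha, differed least of the 51, at 672, 658 and 696 CPM. Anp32e, a chaperone of the histone variant H2A.Z, was at 328, 313 and 214 CPM.

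The 3 nuclear envelope genes summed to 555 CPM in N2a cells, 642 in NIH/3T3 cells and 587 in mESCs. Tmpo, a lamina-associated protein, was at 175, 292 and 209 CPM, with ranges over the BC1 sequences of 139 to 208, 235 to 382 and 169 to 266 CPM, and the NIH/3T3 range lay above that of N2a and overlapped that of mESCs. Lbr, the lamin B receptor, was at 148, 149.6 and 219 CPM, and Rangap1, which acts in nuclear transport and at kinetochores, was at 232, 201 and 159 CPM, highest in N2a.

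In the further list of 61 mitosis genes, 36 (59.0%) were highest in mESCs, 16 (26.2%) in NIH/3T3 and 9 (14.8%) in N2a. N2a was lowest for 36 (59.0%). Over all genes tested, mESCs were highest for 32.2%, NIH/3T3 for 33.3% and N2a for 34.5%, and N2a was lowest for 30.7%. Of the 61 genes, 28 differed by at least 2 times between the highest and lowest line (58.9% of all genes tested). The widest was Arl6ip1, an endoplasmic reticulum protein, at 134, 9.75 and 687 CPM. Mybl2, a transcription factor of the Myb family that activates such promoters, was at 19.4, 29.2 and 214 CPM. Ccnf, an F-box cyclin, was at 30.1, 54.4 and 142 CPM, and Iqgap3, a cytoskeletal scaffold, was at 20.2, 84.3 and 52.4 CPM. Ccnb1, the main B-type cyclin, was at 132, 102 and 244 CPM, with the same order of lines as Ccnb2. Prc1, which bundles microtubules in the spindle midzone, was at 149, 324 and 326 CPM. With mESC highest, the list also held Melk, Fbxo5, Sgo1, Fzr1, Kif18a, Zwilch, Incenp, Kif20a, Tubb4b, Kif22, Spc24, Spc25, Cep55, Sgo2a and Kifc1 past 2 times. With NIH/3T3 highest, it held Cdc25b, Depdc1a, Cdkn3, Knstrn, Troap and Pimreg.

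The lines also differed in how the module was spread over their cells. Each cell was thinned to 1000 UMIs, which left out 0 cells, and the UMIs of the 51 genes were counted. The mean was 7.79 UMIs per cell in N2a cells, 9.47 in NIH/3T3 cells and 11.3 in mESCs, and the medians were 7, 8 and 11. The variance over the mean, which is close to 1 for counting error alone, was 2.72 in N2a cells, 4.37 in NIH/3T3 cells and 1.79 in mESCs. After counting error was taken off, the spread between cells was 46.9% of the mean in N2a cells, 59.7% in NIH/3T3 cells and 26.4% in mESCs. For the S phase genes it was 49.5%, 31.9% and 21.2%. The order of NIH/3T3 and N2a was thus reversed between the lists, and mESCs were the least spread in both.

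At least 3 module UMIs of 1000 were found in 87.7% of N2a cells (95% interval 86.3% to 89.0%), 89.3% of NIH/3T3 cells (87.9% to 90.7%) and 99.2% of mESCs (98.7% to 99.5%). Without thinning, these shares were 99.1%, 98.9% and 99.9%. At least 10 were found in 33.4% (31.5% to 35.4%), 41.4% (39.3% to 43.6%) and 61.7% (59.6% to 63.8%). The upper end had another order, with 95th percentiles of 16, 22 and 19 UMIs and maxima of 30, 36 and 30. None of the 3 lines is a cell type that should lack these transcripts, so no background share from such a type can be set beside these values. The barcodes with under 100 UMIs held the module at 105% (N2a), 102% (NIH/3T3) and 97.6% (mESC) of its level in cells. How often 1000 UMIs of such RNA would hold at least 3 of the module was not tested. The shares therefore do not show that each counted cell expressed the module. The module UMIs of thinned cells had Spearman correlations across cells of 0.033 in N2a cells, 0.0744 in NIH/3T3 cells and 0.110 in mESCs with total UMIs, and of -0.110, -0.0689 and -0.117 with the mitochondrial percent.

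**Figure D2:**
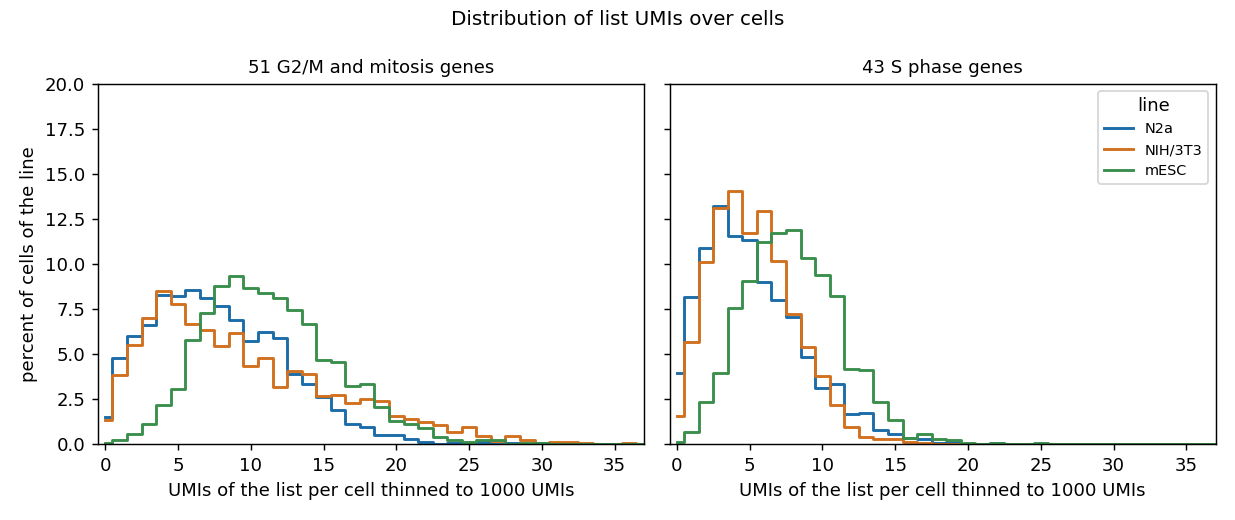
Percent of the cells of each line (vertical axis) by the number of UMIs of the list per cell after thinning to 1000 UMIs (horizontal axis), for the 51 members on the left and the 43 S phase genes on the right. On the left the NIH/3T3 curve is the broadest, with a 95th percentile of 22 UMIs, and 35 N2a cells, 27 NIH/3T3 cells and 1 mESC lie at 0.

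Within each line, members tended to vary together across cells, most weakly in mESCs. The correlation of each member with the summed UMIs of the other 50, over the thinned cells of 1 line, had a median of 0.0965 in N2a (n = 2323 cells), 0.186 in NIH/3T3 (n = 2037) and 0.0616 in mESCs (n = 2137). The cells share a library and counts of single genes are sparse at this depth, so the size of these values is bounded by sampling, and they are given as a description. The other genes with a mean of at least 5 CPM were each correlated with the sum of all 51 members. They were not matched to the members in abundance. The values of the members exceeded the 99th percentile of these genes for 38, 45 and 30 of the 51 in the 3 lines. That percentile was 0.070 in N2a cells, 0.0861 in NIH/3T3 cells and 0.057 in mESCs, and the median of the other genes was 0.00198, -9.96e-05 and 0.000349. In the further list, 37, 40 and 25 of 61 genes exceeded it.

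The highest mean correlations were those of Top2a, Cenpf, Mki67, Cenpe and Nusap1. For Top2a the correlation was 0.381, 0.412 and 0.195, and for Cenpf it was 0.288, 0.379 and 0.217. Mki67 had 0.274, 0.369 and 0.127, Cenpe 0.237, 0.346 and 0.117, and Nusap1 0.161, 0.289 and 0.145. The lowest mean correlations were those of Anp32e, Rangap1, Ccnb2, Ncapd2 and Lbr. For Anp32e the correlation was 0.0571, 0.0397 and 0.0316, and for Rangap1 it was 0.0689, 0.0561 and 0.0118. Ccnb2 had 0.0372, 0.0552 and 0.0454, Ncapd2 0.0412, 0.0707 and 0.0371, and Lbr 0.0825, 0.0860 and 0.00970. Ccnb1 of the further list had 0.172, 0.207 and 0.125, above Ccnb2 in each line. Prc1 and Aspm had the highest mean of that list, with 0.199, 0.357 and 0.138 for Prc1 and 0.199, 0.328 and 0.118 for Aspm, whereas Mybl2 had 0.0284, 0.00159 and -0.0245.

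**Figure D3:**
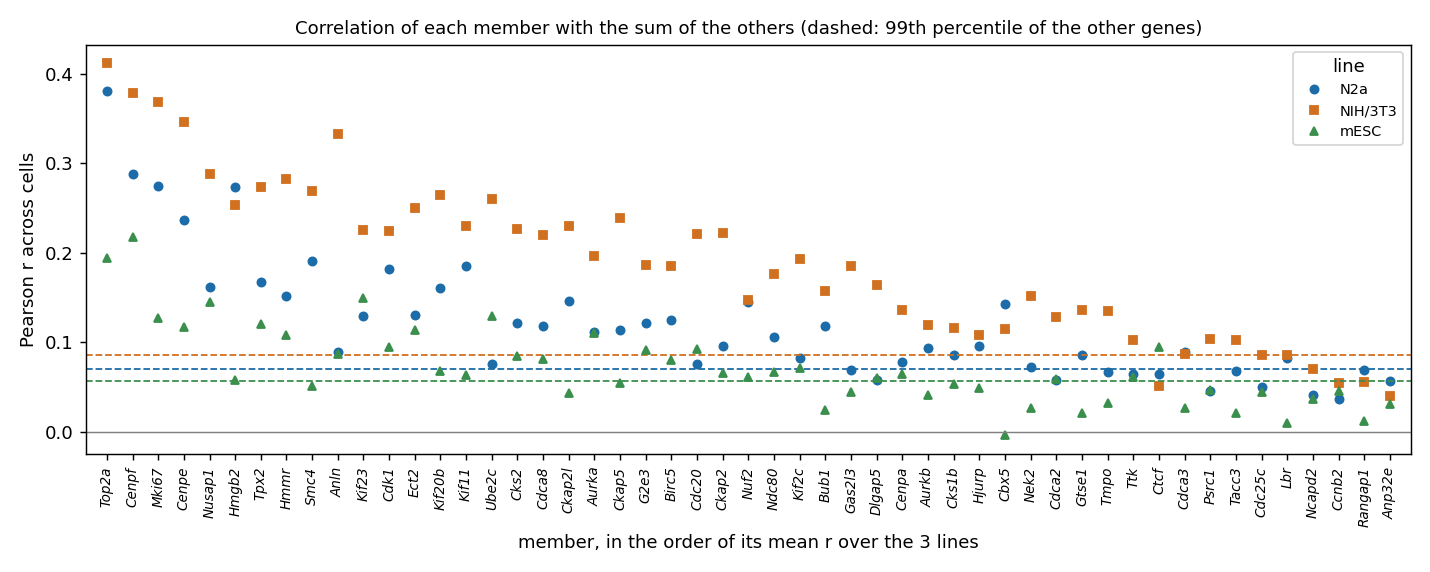
Pearson correlation across cells (vertical axis) of each member with the sum of the other 50 members in thinned cells, for each line, with members ordered by their mean over the lines (horizontal axis). Dashed lines mark the 99th percentile of the other genes in each line, at 0.070 for N2a, 0.0861 for NIH/3T3 and 0.057 for mESC, and most NIH/3T3 squares lie above the other symbols.

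Over the 51 members, the correlations of N2a and NIH/3T3 had a Pearson r of 0.80 and a Spearman rho of 0.78. Between NIH/3T3 and mESC these were 0.76 and 0.72, and between N2a and mESC they were lower, at 0.63 and 0.51. Each value also depends on the abundance of the member, which was not corrected for. Between single members the values were small: the median over the 1275 pairs was 0.0216 in N2a cells, 0.0476 in NIH/3T3 cells and 0.0115 in mESCs. Negative values were found for 259, 135 and 375 of the pairs. The highest pair was Cenpf with Top2a, at 0.199 in N2a cells, 0.279 in NIH/3T3 cells and 0.115 in mESCs, followed by Cenpe with Cenpf at 0.121 in N2a cells, 0.241 in NIH/3T3 cells and 0.115 in mESCs. Of the 10 highest pairs, those with Top2a further held Mki67, Cenpe, Smc4, Nusap1, Anln and Kif20b, and those with Cenpf held Mki67 and Ect2. Pairs within a role had medians of 0.0249, 0.0539 and 0.0121, close to those of pairs across roles at 0.0214, 0.045 and 0.0115. By role, the summed UMIs of kinetochore genes had correlations with the rest of the module of 0.390 in N2a cells, 0.493 in NIH/3T3 cells and 0.221 in mESC. Those of chromosome structure genes had 0.407, 0.508 and 0.190, and those of spindle genes 0.333, 0.557 and 0.182. Nuclear envelope genes had 0.134, 0.161 and 0.0308. The roles differ in their number of genes, which was not corrected for.

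Each member was also read in the lowest and the highest quintile of the cells of a line, sorted by the summed UMIs of the other 50. In N2a the median member was 3.89 times higher in the highest quintile, in NIH/3T3 5.73 times and in mESCs 1.62 times. The ratio was at least 2 for 44 members in N2a cells, 45 in NIH/3T3 cells and 11 in mESCs. Of all 11498 genes tested, with those outside the list sorted by all 51 members, 2.79%, 2.99% and 1.48% reached this ratio, and the medians were 1.01, 0.960 and 0.989. Nusap1 in NIH/3T3 went from 10.7 to 329 CPM, 30.8 times (95% interval 20.4 to 48.9), the largest ratio there. In N2a it went from 15.2 to 133 CPM, 8.72 times (95% interval 6.53 to 11.9), and in mESCs from 109.8 to 351 CPM, 3.19 times (95% interval 2.76 to 3.70). Cenpf, the largest in mESCs, went from 168 to 543 CPM, 3.22 times (95% interval 2.87 to 3.63). In N2a Cenpf went from 48.5 to 509 CPM, 10.5 times (95% interval 8.93 to 12.4), and in NIH/3T3 from 30.7 to 718 CPM, 23.4 times (95% interval 18.3 to 30.3). In the lowest quintile, both genes were thus lower in N2a and NIH/3T3 than in mESCs.

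Hmgb2 went from 443 to 1042 CPM, 2.36 times (95% interval 2.22 to 2.50), in N2a. In NIH/3T3 it went from 163 to 664 CPM, 4.06 times (95% interval 3.62 to 4.57), and in mESCs from 1349 to 1513 CPM, 1.12 times (95% interval 1.07 to 1.18). Its level in the lowest quintile of mESCs was thus above its level in the highest quintile of both other lines. Ccnb2 went from 46.7 to 65.8 CPM, 1.41 times (95% interval 1.15 to 1.74), in N2a. In NIH/3T3 it went from 25.2 to 50.1 CPM, 1.99 times (95% interval 1.44 to 2.78), and in mESCs from 114 to 162 CPM, 1.42 times (95% interval 1.22 to 1.67), so that it was flatter over the cells than the median member in all 3 lines. Anp32e was the flattest in all 3 lines, with ratios of 1.32 in N2a cells, 1.15 in NIH/3T3 cells and 0.974 in mESCs.

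**Figure D4:**
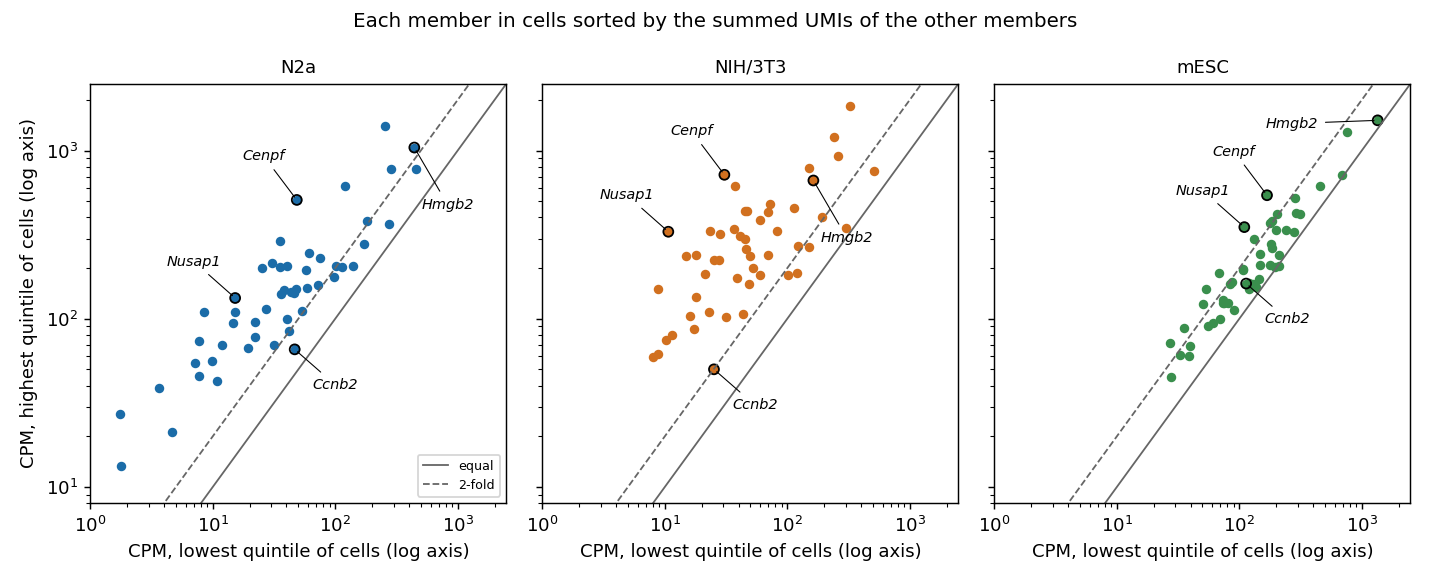
CPM of each member in the highest quintile (vertical log axis) against the lowest quintile (horizontal log axis) of the cells of N2a, NIH/3T3 and mESC, sorted by the other 50 members. The solid line marks equal levels and the dashed line a ratio of 2, which 44, 45 and 11 members reached.

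The order of the lines depended on which cells were read. In the lowest quintile, mESCs were highest for 47 of the 51 members (34% of all genes tested), NIH/3T3 for 3 (33% of genes) and N2a for 1 (33% of genes). Each member was read in its own sorting, so sums over members do not belong to 1 group of cells. These sums were 3820 CPM in N2a cells, 4073 CPM in NIH/3T3 cells and 9394 CPM in mESCs. In the highest quintile, NIH/3T3 was highest for 36 members (33.2% of genes), mESC for 12 (31.5% of genes) and N2a for 3 (35.3% of genes). The sums, formed in the same way, were 11437, 17756 and 14159.9 CPM. The sorting itself is limited by counting error, which narrows the gap between quintiles. As the module set the sorting, these counts are not independent of its mean and spread in each line. Most genes behind the shares in brackets did not follow the sorting, with median ratios of 1.01, 0.960 and 0.989. A quintile is the same share of each line and need not hold the same cell cycle phases in all lines. With the quintiles set at full depth, an alternative chosen after seeing the data, the median ratios were 5.50, 7.77 and 2.04, mESCs were highest for 46 members in the lowest quintile, and NIH/3T3 for 35 in the highest.

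In another reading, the quintiles were set by every other member of the list and the members left over were summed. When the 26 members in odd places set the quintiles, the other 25 went from 2122 to 5463 CPM in N2a, from 1889.9 to 8185 CPM in NIH/3T3 cells and from 5119 to 7235 CPM in mESCs. These are ratios of 2.57, 4.33 and 1.41. With the 25 and the 26 exchanged, the ratios were 2.52, 3.37 and 1.38. The S phase genes were read over the same quintiles. With those set by the 26 members in odd places, they went in N2a from 4099.9 CPM in the lowest quintile to between 5518 and 5689 CPM in the middle 3 and to 5032 CPM in the highest. In NIH/3T3 they were at 4776 CPM in the lowest, at up to 5829 CPM in the middle and at 4737 CPM in the highest quintile, and in mESCs they lay between 7885 and 8286 CPM in all 5.

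**Figure D5:**
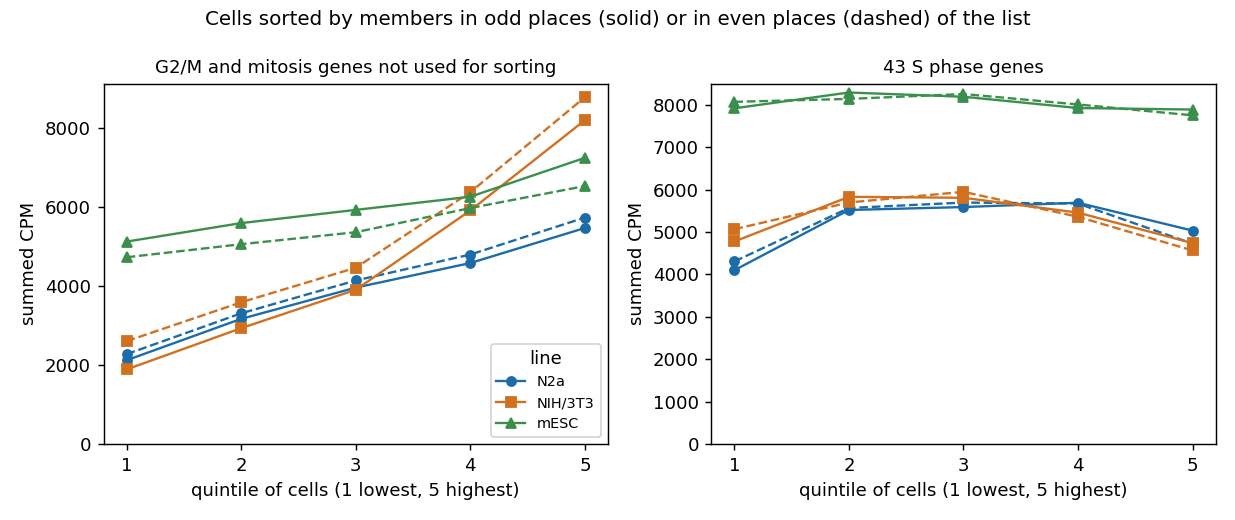
Summed CPM (vertical axis) of the members not used for sorting (left) and of the 43 S phase genes (right) over quintiles of the cells of each line (horizontal axis), sorted by the members in odd places (solid) or in even places (dashed). The NIH/3T3 curve on the left is the steepest, from 1889.9 to 8185 CPM on the solid line, and the mESC curves start the highest.

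Across cells, the summed module had a Pearson correlation with the summed S phase genes of 0.192 in N2a cells, 0.0708 in NIH/3T3 cells and 0.0138 in mESCs, and of 0.102, -0.00226 and -0.0252 by rank. Top2a had the highest single value in N2a and NIH/3T3, at 0.149 and 0.0960. Cenpf, by contrast, had -0.0566 and -0.0782 there. These values are weak and sparse counts bear on them.

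Outside the lists, the genes with the highest mean correlations with the module included Malat1, H1f5, Arhgap11a, Kpna2, Rad21, Diaph3, Cip2a, Trim59 and Prr11. Malat1, a nuclear long noncoding RNA, had correlations of 0.121, 0.185 and 0.119, and was at 2127, 6891 and 4656 CPM. H1f5, a linker histone gene, had 0.252, 0.174 and -0.0345, and its sign thus differed in mESCs. The lowest mean values included those of mt-Co3, Maml3, mt-Cytb and Rbms3, with -0.102, -0.116 and -0.115 for mt-Co3, a mitochondrial transcript.

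The 51 genes lie on many chromosomes, and 24 of them overlap another listed gene on some strand, 2 of them on the same strand (Anln with Gm48646, and Ncapd2 with Gm28967). The strand setting of the counting is not given in the sources used here, so reads of such pairs may not have been told apart. How reads that match several genes were counted is not given there either, so the levels of members with related genes or processed copies, such as Cks1b, Cks2 and Hmgb2, carry that uncertainty. Ccnb2, Gas2l3 and Cenpe are among the members without such an overlap.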

How the data were processed

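RNA of single cells of N2a, NIH/3T3 and mESC lines was measured in 1 CapSeq library. The authors trimmed the template-switching sequence, aligned the reads to GRCm39 with the GENCODE M30 annotation, and counted UMIs with STARsolo, with the lines divided by BC1. What the authors deposited are UMI counts, neither normalized nor filtered, for each gene in each of 884736 barcodes. The feature mode and strand setting of the counting are not given in the sources used here. The totals were 20662884 UMIs in N2a, 13505027 in NIH/3T3 and 13875356 in mESC, and 49185518 in the pooled matrix, which exceeds the sum of the 3 lines and served as an alternative.

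Barcodes with at least 1000 UMIs and at most 20% UMIs of mt- genes were kept as cells. No doublet caller was run. Levels are CPM of UMIs summed over the cells of a line, with exact Poisson intervals. Ratios have intervals from the conditional binomial distribution and shares have exact binomial intervals. Ratios between lines were read for genes with a mean of at least 5 CPM over the 3 lines, and a count under 3 UMIs was set to 3. Cells were thinned to 1000 UMIs with a fixed seed for shares, spread, correlations and the sorting into quintiles. Start sites were those of the canonical transcripts in the GENCODE M39 annotation (GRCm39), which held 32953 of the 33565 gene identifiers. The calls past a ratio, the correlation of a member with the others and the thinning were tested on simulated counts. The other steps were not. TMM factors came from edgeR 4.0.16 in R 4.3.3, figures from matplotlib 3.10.9, and all else from Python 3.11.15 with pandas 2.3.3, scipy 1.17.1 and numpy 2.4.6.

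The members and lists were chosen with earlier results of these data known. All 51 members could be named. For each role, the member with the most UMIs and the one with the largest ratio between lines were described in full. By mean correlation, the 5 highest and 5 lowest members, the 10 highest pairs and, of the 10 highest other genes, those reported here were named, and from the further list those past 2 times. Smc4, Racgap1, Ccnb1, Prc1, Aspm and other genes named beside these were chosen after their values were seen. Some genes outside the lists are not reported.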

Additional observations from a re-analysis of the deposited data

How the results depend on the processing

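With 1 library for all lines, no paired analysis was possible because there are no replicates to pair or to leave out. The alternatives included the STARsolo cell call, a minimum of 2000 UMIs, counts from the pooled matrix, and TMM and median-of-ratios scaling. Others were a mean of at least 20 CPM and no filter on low values. None of these moved a level or share it was run on beyond counting error, or a count of members beyond 1.5 times. Among them, only the STARsolo cell call was run on correlations. Those stayed within a 95% interval set by the number of cells, which takes cells as independent. The scalings shifted a line by at most 0.0421 on the log2 scale. The module was at 7909, 9669 and 11500.5 CPM in N2a, NIH/3T3 and mESC without the 5% of cells with the most UMIs, at 7096, 8975 and 10606 CPM without Top2a, and at 7874, 9539 and 11312 CPM as the mean over cells, always in the same order of lines. Another seed of the thinning gave 89.2% of N2a cells with at least 3 module UMIs, above the 95% interval of 86.3% to 89.0%. That interval does not cover the thinning draw. With this seed the share was 89.5% in NIH/3T3, so these 2 lines were hardly apart in it. The median correlation of members was higher at greater depth, at 0.156 in N2a and 0.267 in NIH/3T3 with 2000 UMIs (which left out 253, 262 and 276 cells of N2a, NIH/3T3 and mESC) and at 0.268, 0.394 and 0.198 without thinning, and NIH/3T3 stayed above N2a and N2a above mESC in every setting tried. The correlation of module and S phase genes was 0.287 in N2a at 2000 UMIs and 0.349, 0.184 and 0.0816 in N2a, NIH/3T3 and mESC without thinning. By rank it was 0.102 in N2a and reversed to -0.00226 in NIH/3T3. In mESCs it lay near 0 and changed sign with the setting, at -0.0285 with 2000 UMIs, -0.0252 by rank and -0.0144 with the STARsolo cell call. The cause was not tested. Without the 5% of cells with the most UMIs, an alternative chosen after seeing the data, mESCs were highest for 46 members in the lowest quintile and NIH/3T3 for 35 in the highest. Culture, line and the BC1 columns cannot be told apart in this design, and the sparse counts of single genes limit each correlation.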
